A study of Homo sapiens with 6 samples.

Results

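Ephrins and Eph receptors were followed in HCT116 cells, a human colon cancer line, with EFNB2 (ephrin-B2) as the gene of main interest. The 10 genes EFNA1, EFNA4, EFNB1, EFNB2, EPHA1, EPHA2, EPHB2, EPHB3, EPHB4 and EPHB6 were picked by their symbols out of 40173 genes in the deposited table, and they hold 52 of its 151453 transcripts with a gene. The genes were listed with earlier results of the same comparison known, so their differences between groups are given as a description and carry no test. MOCK cells, labelled wild type, received a control lentivirus. CYGB cells, labelled CYGB overexpression, received a lentivirus that constitutively expresses the coding region of cytoglobin fused to FLAG. Both groups were selected with puromycin into stable lines, so what CYGB did and how the 2 transduced populations differ cannot be told apart. Each group had 3 libraries that the submitters call biological replicates.

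Library totals were 58138393 to 66035266 counts, and CYGB itself had 10 to 34 counts in MOCK and 27681 to 34935 counts in CYGB libraries. Epithelial markers were abundant in both groups, with EPCAM at 328 CPM and KRT8 at 1800 CPM in MOCK (means of 3 libraries, CPM being counts relative to the TMM-scaled library size), whereas KRT20 and VIL1 stayed under 1 CPM in the means of both groups. Of the 9 colon epithelial markers listed, 8 were in the table. The summed level of 7 endothelial markers was 3.05 to 3.09 CPM for MOCK and 1.73 to 3.14 CPM in CYGB libraries. That of 5 leukocyte markers was 0.656 to 1.07 CPM for MOCK and 0.807 to 1.20 CPM in CYGB, and that of 7 fibroblast markers was 46.2 to 51.7 CPM for MOCK and 48.6 to 55.7 CPM in CYGB, nearly all of it from COL1A1.

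Ephrins are cell-surface ligands whose receptors, the Eph receptor tyrosine kinases, sit on neighbouring cells. Binding sends a forward signal into the cell with the receptor and a reverse signal into the cell with the ephrin. Ephrin-A ligands are held by a lipid anchor, while ephrin-B ligands cross the membrane and carry a short cytoplasmic tail. In the intestine, EPHB2 and EPHB3 are Wnt target genes of the crypt base, and ephrin-B ligands lie towards the top of the crypt, so that repulsion between the cells keeps the compartments apart.

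EFNB2 (ENSG00000125266, chromosome 13 of GRCh38 from 106489731 to 106535662, minus strand) has 2 transcripts in the table, and both encode the same protein sequence. The coding intervals of ENST00000646441 and ENST00000245323 were identical in GENCODE 29, with 999 coding bases before the stop codon in 5 exons. The longer transcript, ENST00000646441 (4995 bases), starts 548 bases further upstream within the first exon, which gives it a 5′ untranslated region of 698 bases. That of the shorter transcript, ENST00000245323 (4461 bases), is 150 bases. At the other end the shorter transcript runs 14 bases further. The 2 transcripts share 4447 bases, which is 99.7% of the shorter and 89.0% of the longer one.

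Sequences at the ends where the EFNB2 transcripts differ, and the coding start they share, are shown because EFNB2 counts are given per transcript below. The first line gives 30 bases across the start of the shorter transcript (chr13:106535100-106535129, minus strand), with the bases found in both transcripts in capitals. The next gives the end of the shorter transcript (chr13:106489731-106489760, minus strand), with the bases it alone holds in capitals. The last is the beginning of the shared coding region (chr13:106534905-106534964, minus strand), with the start codon in capitals.
EFNB2 start of the shorter transcript: cgcacctggcccggcGACCGCTGGAGCTGC
EFNB2 end of the shorter transcript: ttttcctatggaaaaaGTGCCTTCAAAGTA
EFNB2 coding start: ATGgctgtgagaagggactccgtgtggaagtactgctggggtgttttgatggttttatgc

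**Figure D1:**
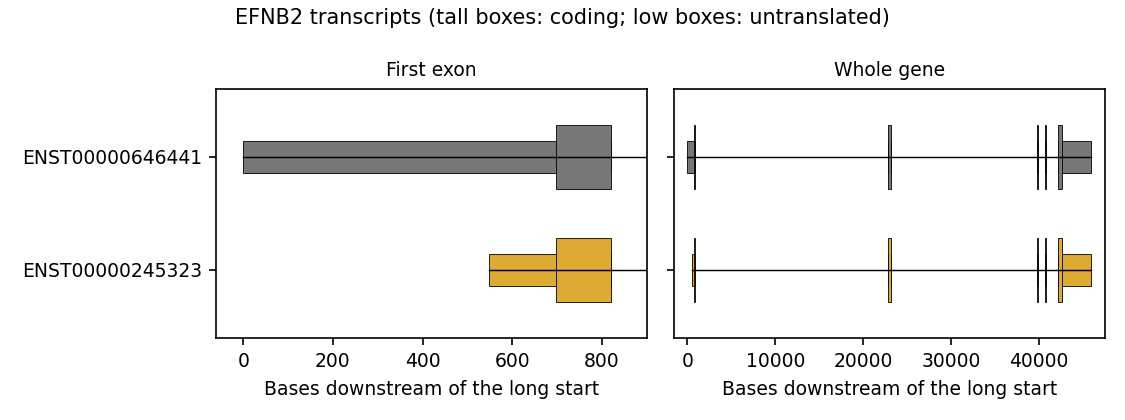
The 2 EFNB2 transcripts of GENCODE 29, with bases downstream of the long start on the x axis, the first exon enlarged on the left and the whole gene on the right (tall boxes are coding, low boxes untranslated, lines introns). The coding boxes are the same, and the longer transcript begins 548 bases earlier.

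EFNB2 counts stood almost wholly on one transcript in MOCK and on the other in CYGB libraries, while the sum of both hardly differed. ENST00000646441, with the long 5′ end, had counts of 8377, 9083 and 8954 in the MOCK replicates 1 to 3 and of 207, 157 and 88 in the CYGB replicates 1 to 3. The lowest MOCK library thus lay far above the highest CYGB library. ENST00000245323, with the short 5′ end, had counts of 191, 349 and 22 in MOCK and of 8865, 8746 and 9470 in CYGB. Its groups were as far apart, in the opposite direction, and MOCK replicate 3 had the fewest counts.

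As a share of all EFNB2 counts, the long transcript made up 97.8, 96.3 and 99.8% in the MOCK libraries (mean 97.9%, SD 1.73, n = 3). In the CYGB libraries it made up 2.28, 1.76 and 0.921% (mean 1.66%, SD 0.687, n = 3). The difference of the means was 96.3 percentage points, against a range of 3.46 points among MOCK and 1.36 points among CYGB libraries. In the fit across all transcripts, the log2 fold change of the long transcript was -5.87 (standard error 0.40) in CYGB against MOCK, and that of the short one 5.60 (standard error 1.03). On the linear scale these are 58.4-fold lower and 48.4-fold higher. The value of the short transcript moved with single MOCK libraries, with a log2 fold change of 6.34 without MOCK replicate 2 and 5.08 without MOCK replicate 3.

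**Figure D2:**
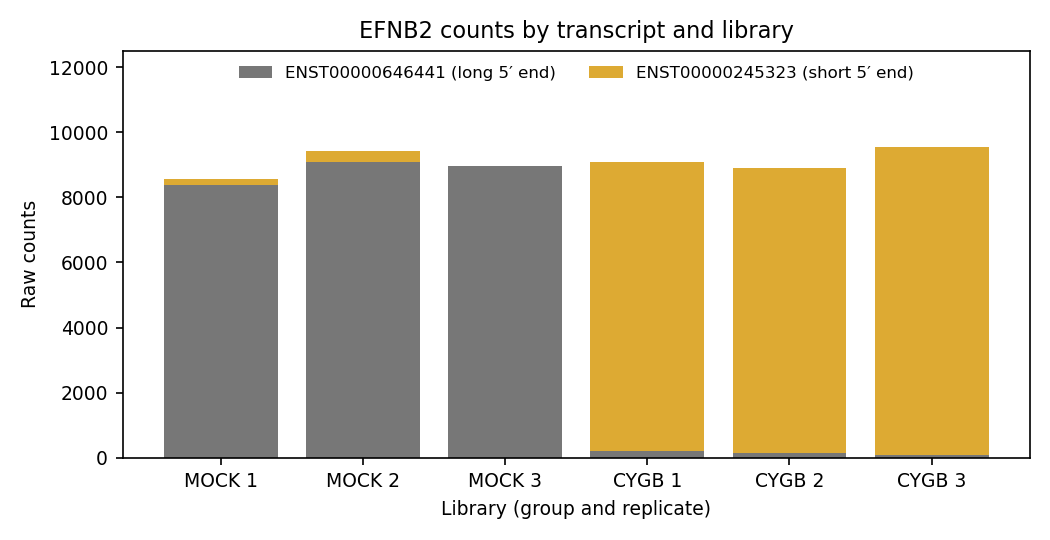
Raw EFNB2 counts (y axis) in each of the 6 libraries (x axis), stacked by transcript. The long transcript fills the 3 MOCK bars and the short one the 3 CYGB bars, while the bar heights stay between 8568 and 9558 counts.

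At the level of the gene, EFNB2 had counts of 8568, 9432 and 8976 in MOCK and of 9072, 8903 and 9558 in CYGB libraries. This corresponded to 178 ± 3.52 CPM in MOCK and 179 ± 3.44 CPM in CYGB (SD, n = 3 each), and the groups overlapped. Its log2 fold change was 0.01 (standard error 0.06). The value kept within -0.01 to 0.02 with any 1 library left out.

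Both EFNB2 transcripts passed the threshold of the study's methods, which asks for an unadjusted p no higher than 0.01 together with a ratio of 2 or more, or of 0.5 or less. Of all 66609 transcripts tested with edgeR's quasi-likelihood test, 1.02% did, 0.54% higher and 0.482% lower in CYGB. Neither had an adjusted p under 0.05 with that test, as 10 transcripts (0.015%) did. Both had one with DESeq2, as did 748 transcripts over the whole table. Without MOCK replicate 1 the short transcript, at a log2 fold change of 5.66, lost its call. These calls rest on the comparison for which EFNB2 was listed, and nothing is read from them.

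How reads were divided between transcripts of a gene is not given in the sources used here. Of the windows of 150 bases, the read length, in the short EFNB2 transcript, 14 of 4312 (0.325%) are absent from the long one, and 548 of 4846 windows (11.3%) of the long transcript are absent from the short one. The part of this overlap in the transcript counts was not tested. Neither of the annotated genes that overlap EFNB2 approached its counts. The antisense gene AL138689.2 had 89 to 141 counts per library and a log2 fold change of 0.24, and AL138689.1, within an intron on the same strand, had 21 to 53 counts and a log2 fold change of -0.07. The library kit's strand setting is not stated, so reads of an antisense gene cannot be told apart from those of its partner.

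The same measure was taken over all 9292 genes that averaged 10 CPM or more and had 2 or more transcripts. In 41 genes (0.441%) the leading MOCK transcript lost at least 50 points of its share in CYGB without overlap between the groups. EFNB2 had the largest loss of the 9292, and it was listed with this comparison known. In 15 of the 41 genes, as in EFNB2, the leading transcripts of the 2 groups had the same coding intervals. The gene as a whole passed the threshold of the methods in 5 of the 41. Shares also moved between libraries of 1 group, and the leading MOCK transcript ranged by at least 50 points among the 3 MOCK libraries in 990 genes (10.7%). The median range among MOCK libraries was 10.1 points, above the 3.46 points of EFNB2. A small range was not particular to EFNB2. It was smaller in EPHB3 (1.42 points), EPHB2 (1.54), EFNA4 (2.31) and EPHA2 (3.1). The range was wider in EPHA1 (7.43 points), EPHB4 (15.7) and EFNA1 (47.9).

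**Figure D3:**
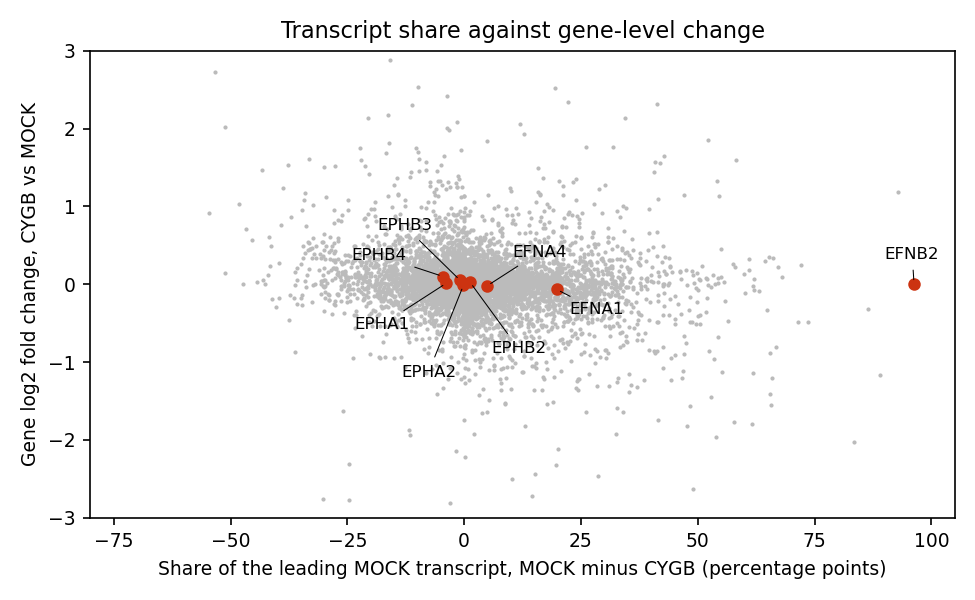
Each grey point is 1 of 9292 genes (18 lie outside the axes), with the loss of share of its leading MOCK transcript on the x axis (MOCK minus CYGB, percentage points) and the gene-level log2 fold change on the y axis. Red points are the 8 ephrin and Eph receptor genes that could be placed. EFNB2 sits at the far right, at 96.3 points and a log2 fold change of 0.01.

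The long start coincides with the EFNB2 start in RefSeq. The 250 bases upstream of it, from RefSeq (GRCh38.p14, chr13:106535663-106535912, minus strand), are shown because they flank the start of the long transcript. The counts are per transcript, and the use of this start was not tested. Capitals mark matches, on either strand, to the TATA box TATAAA, the GC box GGGCGG and the CCAAT box CCAAT.
EFNB2 upstream of the long start: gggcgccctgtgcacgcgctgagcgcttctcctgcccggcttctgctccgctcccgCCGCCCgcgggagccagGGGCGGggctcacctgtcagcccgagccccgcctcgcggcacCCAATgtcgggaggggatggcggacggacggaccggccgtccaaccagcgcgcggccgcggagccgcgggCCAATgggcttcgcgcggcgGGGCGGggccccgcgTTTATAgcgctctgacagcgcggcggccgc

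The TATA box letters lay 30 bases upstream of the long start, on the minus strand relative to EFNB2, and 10.7% of 35116 promoters of the same length held them. There were 3 matches to the GC box (42.6% of promoters held at least 1) and 2 to the CCAAT box (32.0%). The letters GGAATG, the core of the TEAD motif, were not in this window and were in 11.9% of promoters. The window had 78.4% G and C bases and 40 CpG pairs, against medians of 58.0% and 11 pairs. The start of the short transcript lies inside the first exon of the long one.

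The other ligands had gene-level differences no larger than 0.16 on the log2 scale. EFNB1 (ENSG00000090776, chromosome X from 68828997 to 68842147), the closest relative of EFNB2 among the 10 genes and an EPHB ligand of the intestinal epithelium, has 1 transcript in the table. It had counts of 3006, 3428 and 3362 in MOCK and of 3395, 3767 and 3927 in CYGB. In CPM these were 64.6 ± 0.871 and 72.0 ± 4.20 (SD, n = 3 each), and every CYGB library lay above every MOCK library. Its log2 fold change was 0.16 (standard error 0.08). It was the only one of the 10 genes whose groups did not overlap, as did 11.0% of all 19987 genes tested.

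The last coding bases of the ephrin-B ligands encode the end of the cytoplasmic tail, which binds adaptor proteins in reverse signalling. The 99 bases before the stop codon of EFNB1 (chrX:68840553-68840651, plus strand) and EFNB2 (chr13:106493043-106493141, minus strand) are shown to compare these genes, with differing bases in capitals. They were identical at 89 positions (89.9%). In their leading coding transcripts, the longest run that EFNB1 and EFNB2 shared was 17 bases. The longest that any 2 of the 10 genes shared was 59 bases, in EPHA2 and EPHB2, shorter than 1 read.
EFNB1 coding end: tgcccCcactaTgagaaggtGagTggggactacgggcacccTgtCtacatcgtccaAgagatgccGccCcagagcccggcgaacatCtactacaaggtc
EFNB2 coding end: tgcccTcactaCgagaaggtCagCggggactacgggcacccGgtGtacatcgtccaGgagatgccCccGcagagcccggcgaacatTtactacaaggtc

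EFNA1 (ENSG00000169242, chromosome 1 from 155127460 to 155134857), a ligand of EPHA2, had counts of 498, 708 and 721 in MOCK and of 614, 527 and 721 in CYGB. The log2 fold change was -0.07 (standard error 0.18), with overlapping groups. Its transcripts varied between libraries of 1 group. The noncoding ENST00000469878 held 60.4, 19.6 and 67.5% of EFNA1 counts in MOCK and 47.4, 19.2 and 21.6% in CYGB, so that its range among MOCK libraries, 47.9 points, was wider than the 19.8 points between the means. EFNA4 (ENSG00000243364, chromosome 1 from 155063731 to 155069553), another ephrin-A, had 805 to 980 counts in MOCK and 824 to 960 counts in CYGB, and a log2 fold change of -0.02 (standard error 0.12). Its 2 coding transcripts, ENST00000368409 and ENST00000427683, held near-equal parts, the first 50.4 to 52.7% in MOCK and 39.7 to 55.8% in CYGB.

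Among the receptors, EPHA2 (ENSG00000142627, chromosome 1 from 16124337 to 16156087), the main ephrin-A receptor of many epithelial cancers, was the most abundant. It had counts of 22713, 25636 and 23929 in MOCK and of 19949, 25895 and 26950 in CYGB. CYGB replicate 1 was the lowest of all 6 libraries and the other CYGB libraries were the highest, so the groups overlapped. The level was 477 ± 10.7 CPM for MOCK and 473 ± 67.3 CPM in CYGB (SD, n = 3 each), with a log2 fold change of -0.01 (standard error 0.11). EPHA1 (ENSG00000146904, chromosome 7 from 143390289 to 143408892) had counts of 1683, 1750 and 2042 in MOCK and of 1916, 1713 and 1988 in CYGB. Its log2 fold change was 0.01 (standard error 0.12). It overlaps ZYX on the opposite strand, which had 7120 to 8292 counts per library and a log2 fold change of -0.02.

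EPHB2 and EPHB3, the receptors of the crypt base, were present at similar levels in both groups. EPHB2 (ENSG00000133216, chromosome 1 from 22710839 to 22921500) had counts of 2708, 3123 and 3324 in MOCK and of 2863, 2869 and 3734 in CYGB, with a log2 fold change of 0.03 (standard error 0.13). EPHB3 (ENSG00000182580, chromosome 3 from 184561784 to 184582409) had counts of 1231, 1399 and 1384 in MOCK and of 1301, 1314 and 1607 in CYGB, with a log2 fold change of 0.05 (standard error 0.12). For both genes CYGB replicate 3 was the highest library. The leading EPHB2 transcripts were ENST00000374632, with 53.4 to 54.9% of its counts in MOCK and 48.2 to 56.6% in CYGB, and ENST00000400191. Almost all EPHB3 counts, 97.8 to 99.4%, were on ENST00000330394.

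EPHB4 (ENSG00000196411, chromosome 7 from 100802565 to 100827521), the preferred receptor of ephrin-B2 and the venous partner of that arterial ligand in blood vessels, had counts of 6333, 6893 and 7279 in MOCK and of 7344, 6952 and 8027 in CYGB. The groups overlapped, and the log2 fold change was 0.10 (standard error 0.08). EPHB4 overlaps SLC12A9 on the opposite strand, which had 709 to 1806 counts per library and a log2 fold change of 0.38. Most EPHB4 counts were on ENST00000487222, a transcript of 5058 bases that GENCODE 29 types as a retained intron. It held 78.3, 85.1 and 94.0% of EPHB4 counts in MOCK and 90.9, 87.7 and 92.2% in CYGB, and 25.5% of its windows of read length are found in no other EPHB4 transcript. Coding EPHB4 transcripts were left with 5.12 to 21.0% of the counts, the most in MOCK replicate 1 and the fewest in MOCK replicate 3. The coding transcript ENST00000360620 had counts of 744, 303 and 0 in MOCK and of 0, 0 and 272 in CYGB.

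EPHB6 (ENSG00000106123, chromosome 7 from 142855061 to 142871094), a receptor without kinase activity, was the least abundant of the 10 genes. It had counts of 251, 502 and 610 in MOCK and of 327, 464 and 356 in CYGB, and its log2 fold change was -0.25 (standard error 0.32). Left-out libraries moved this value from -0.52 to 0.01, the first without MOCK replicate 1. No transcript of EPHB6 led clearly. ENST00000616380, typed as a retained intron, had counts of 74, 285 and 201 in MOCK and of 200, 132 and 52 in CYGB. The leading coding transcript, ENST00000619012, had counts of 122, 173 and 249 in MOCK and of 83, 168 and 125 in CYGB, and all of the 4 coding transcripts together held 26.6 to 56.9% of the counts.

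**Figure D4:**
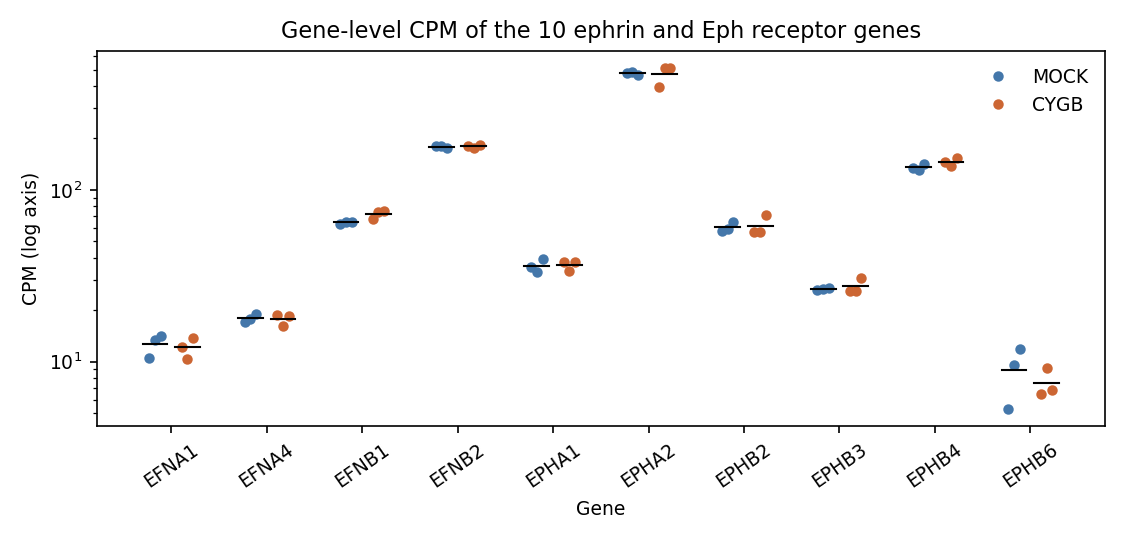
Gene-level CPM (log y axis) of the 10 genes (x axis), with 1 point per library and black lines at the means. The MOCK and CYGB points of every gene but EFNB1 overlap, and EFNB2 lies at 178 and 179 CPM.

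In all, 0 of the 10 genes passed the threshold of the methods with edgeR's quasi-likelihood test, against 0.565% of all 19987 genes tested (0.28% higher and 0.285% lower in CYGB, and 0.055% at an adjusted p under 0.05). None had an unadjusted p under 0.05 in that test, as 4.54% of all genes did. With DESeq2, 0 of the 10 passed the threshold, as did 263 of all genes. With 10 genes, nothing is read from these counts. All 10 passed the filter on low counts. The median absolute log2 fold change was 0.04 over the 10 genes and 0.18 over all genes tested. Of their 52 transcripts, 35 were tested, and the 2 called ones were those of EFNB2. Of all transcripts tested, 1.02% were called. Among the other 33, 0 had an unadjusted p under 0.05. The share of all transcripts under that value is not given here, and nothing is read from this count.

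Levels of different genes were compared per transcript length, as TPM (relative transcript abundance, from the deposited counts and the lengths of GENCODE 29). EPHA2 led in MOCK with 270 ± 17.4 TPM (SD, n = 3), and made up 65.9 to 70.5% of the summed TPM of the 6 receptors in MOCK and 64.3 to 71.7% in CYGB. EFNB2 came next at 69.0 ± 0.736 TPM and was the leading ligand among the ephrins compared here. The rest of the ephrins were not compared per transcript length. EPHB4 had 55.2 ± 2.07 TPM, EFNB1 37.6 ± 1.05 TPM and EFNA4 30.1 ± 2.14 TPM. EPHA1 had 28.1 ± 2.28 TPM, and its range overlapped that of EFNA4, the only neighbours in this order that did in MOCK. EPHB2 (23.5 ± 1.45 TPM), EFNA1 (17.6 ± 2.76 TPM), EPHB3 (13.5 ± 0.603 TPM) and EPHB6 (5.06 ± 1.40 TPM) followed. The order of the means was the same in CYGB. With coding transcripts alone, EPHB4 stood at 8.48 ± 5.08 TPM and EFNA1 at 4.91 ± 2.07 TPM in MOCK (SD, n = 3 each).

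The TPM of EFNB2 was 69.0 ± 0.736 in MOCK and 78.7 ± 0.691 in CYGB (SD, n = 3 each), without overlap, a ratio of 1.14. Its CPM, from the same counts, had a ratio of 1.01. The long transcript is 1.12 times as long as the short one, so the same number of counts gives fewer TPM on the long transcript.

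**Figure D5:**
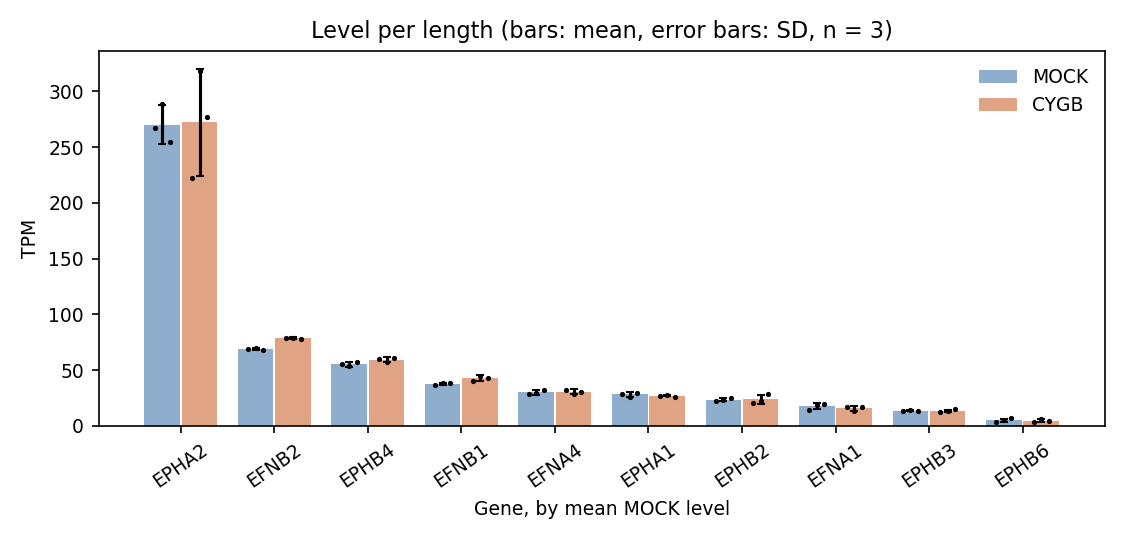
Level per transcript length (TPM, y axis) of the 10 genes, ordered by their MOCK mean (x axis). Bars are means, error bars the SD of 3 libraries and dots the libraries. EPHA2 is far above the rest, and EFNB2, the second gene, steps from 69.0 to 78.7 TPM.

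The rest of the family ranged widely in counts. Of the other 4 ephrins, EFNA3 had 54.4 ± 6.31 CPM for MOCK and 49.6 ± 6.47 CPM in CYGB (SD, n = 3 each). EFNA2 followed at 9.78 ± 1.59 CPM for MOCK and 10.2 ± 1.16 CPM for CYGB (SD, n = 3 each). EFNB3, with 8 to 19 counts in any library, had the widest difference of the 4 at -0.16 (log2, standard error 0.45). Of the other 8 Eph receptors, 4 passed the filter on low counts. EPHA4 averaged 9.21 ± 0.71 CPM for MOCK and 8.41 ± 0.682 CPM for CYGB (SD, n = 3 each), and EPHA5 had 0 counts in every library. EPHA10 had counts of 170, 59 and 95 in MOCK and of 62, 75 and 45 in CYGB, with a log2 difference of -0.88 (standard error 0.47) that had an edgeR adjusted p of 0.963.

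Further genes of the pathway were taken from lists written for this comparison, 114 genes with the rest of the family included, of which 97 were tested. With edgeR's quasi-likelihood test 0 of the 97 passed the threshold of the methods or had an adjusted p under 0.05, 3 (ARHGEF16, ELMO2 and TCF7L2) had an unadjusted p under 0.05, and 0 passed with DESeq2. Over all genes tested with edgeR, 0.565% passed that threshold and 4.54% had an unadjusted p under 0.05. With DESeq2, 263 of all genes passed it. The groups did not overlap in 16 of them (16.5%), against 11.0% of all genes. The median log2 fold change was -0.032 over the 97 and -0.007 over all genes tested.

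For reverse signalling, 0 of 17 tested genes were called, with a median log2 fold change of -0.04. RGS3, which links ephrin-B to G-protein signalling, had the widest difference, with 2254, 2294 and 2159 counts in MOCK and 2229, 849 and 1144 in CYGB. Its log2 difference was -0.69 (standard error 0.36), with an edgeR adjusted p of 0.963. CYGB replicate 1 lay within the MOCK range, and without it RGS3 passed the threshold of the methods at -1.21 (edgeR adjusted p = 0.319). For forward signalling, 0 of 33 were called, with a median of -0.07. Counts of some of these genes spread widely within a group, where a missing call says little. ROCK2 had 50, 7847 and 28 counts in MOCK and 80, 2454 and 1340 in CYGB (log2 standard error 2.06). CDC42, a small GTPase that shapes the actin cytoskeleton, had counts of 9144, 5838 and 5232 in MOCK and of 1035, 4054 and 4094 in CYGB, with a log2 difference of -1.19 (standard error 0.54) and an edgeR adjusted p of 0.963. Its groups did not overlap, and the spread within each was wide.

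Among shedding and turnover genes, which cut or recycle ephrins and receptors, 0 of 13 were called (median 0.07). PTPN1, a tyrosine phosphatase, differed most, at 63.3 ± 11.5 CPM in MOCK and 79.9 ± 2.53 CPM in CYGB (SD, n = 3 each), which is a log2 difference of 0.34 (standard error 0.15). Notch and VEGF signals switch on EFNB2 in arteries, and 0 of 17 of these genes were called (median -0.03). The Notch ligand JAG2 had counts of 2518, 2245 and 7626 in MOCK and of 8306, 11216 and 2696 in CYGB, with overlapping groups. Without MOCK replicate 2 the Notch ligand DLL4 passed the threshold of the methods (log2 fold change 1.29, edgeR adjusted p = 0.812). Of the crypt Wnt genes, 0 of 9 tested were called (median -0.02). TCF7L2, the partner of β-catenin on DNA, had counts of 1621, 2506 and 2195 in MOCK and of 1663, 1070 and 1671 in CYGB, with a log2 difference of -0.54 (standard error 0.22) and an edgeR adjusted p of 0.963.

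Of the 466 tested transcripts of the pathway genes, 3 (0.644%) passed the threshold of the methods, against 1.02% of all transcripts. They are named here after their values were seen. ENST00000467800 of ELMO2 had counts of 47, 108 and 69 in MOCK and of 151, 1221 and 1148 in CYGB. ENST00000630263 of TBC1D24 had 48, 15 and 24 counts in MOCK and 0 in each CYGB library. ENST00000621592 of MYC had counts of 2469, 2846 and 2317 in MOCK and of 75, 97 and 358 in CYGB. For the whole gene the log2 fold change was 0.33 (standard error 0.12) for ELMO2 and 0.09 (standard error 0.09) for TBC1D24. That of MYC was 0.07 (standard error 0.82). Whole-gene MYC counts were 3957, 4414 and 4198 in MOCK and 5853, 490 and 7116 in CYGB, so its CYGB libraries spread widely around this value.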

How the data were processed

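RNA of 3 MOCK and 3 CYGB libraries of HCT116 cells was sequenced with paired reads of 150 bases. In the table the authors deposited, values are raw, unscaled counts of each transcript. The submitters' processing notes name HISAT2, DESeq2 and hg19, while 99.5% of the transcripts found in GENCODE 29, among them all 52 transcripts of the genes described, have their position there, so GRCh38 is used. The counting tool is not given in the sources used here. Transcripts without a gene (18.6 to 19.5% of the counts of a library) were left out.

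Counts were tested per transcript and summed per gene with edgeR 4.0.16 (filterByExpr, minimum count 10, TMM, glmQLFit and glmQLFTest, Benjamini-Hochberg adjustment), in R 4.3.3. DESeq2 1.42.0, other filters and scalings, a replicate block and leaving out each library were alternatives, and coding transcripts alone were added after the data were seen. The steps were tested on simulated counts. Of the genes set to differ 4-fold 85.4% were called, and of those set to differ 8-fold 94.9%. For transcripts these values were only 27.3% and 66.3%, so a transcript without a call may still differ. Calls also fell on 124 genes and 548 transcripts that were set not to differ, with 19329 genes and 60480 transcripts tested there. In the deposited counts, 113 of 19987 genes and 681 of 66609 transcripts were called. Libraries of 1 group differed by more than sampling noise (a mean chi-square per gene of 101 or more), so each counted as 1 replicate.

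The genes and lists were chosen with earlier results of these data known. Named are the 10 genes, the EFNB2 transcripts, the leading transcript of the others, in each pathway list the called genes or else the one with the largest absolute log2 fold change, and the 3 genes nearest to EFNB2 in pattern. Further transcripts, overlapping genes, markers and pathway genes were named after their values were seen. Figures were drawn with matplotlib 3.10.9.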

Additional observations from a re-analysis of the deposited data

How the results depend on the processing

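The gene-level log2 fold change of EFNB2 was 0.01 and moved by less than the spread between replicates in all alternatives but 1. With the most abundant EFNB2 transcript alone, which over all 6 libraries was the short one, it was 5.60. The long transcript, which led in MOCK, had -5.87. The number of the 10 genes past the threshold stayed at 0 in all 13 alternatives, and both EFNB2 transcripts kept their directions in all 11. The number of EFNB2 transcripts called was 2, with a range of 1 to 2 when 1 library was left out, 1 without MOCK replicate 1, and the number at an adjusted p under 0.05 was 0, but 2 with DESeq2. Left-out libraries moved the log2 fold change of the short transcript from 5.08 (without MOCK replicate 3) to 6.34 (without MOCK replicate 2) and that of the long one from -6.17 to -5.58. With coding transcripts alone, the log2 fold change was 0.58 for EFNA1 (standard error 0.33), -0.49 for EPHB4 (standard error 0.49) and -0.79 for EPHB6 (standard error 0.45), and none of the 10 genes was called. The number of pathway genes called was 0, and 0 to 1 with 1 library left out, the 1 being DLL4 without MOCK replicate 2 and RGS3 without CYGB replicate 1.

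Over all genes, 113 passed the threshold. The number was 263 with DESeq2, 62 where the mean count was 50 or more, 72 when transcripts lacking a gene were kept, and 124 to 177 with 1 library left out (177 without MOCK replicate 3). At an adjusted p under 0.05 there were 11 genes, 108 with DESeq2, 6 when transcripts lacking a gene were kept, and 6 to 14 with 1 library left out (6 without MOCK replicate 1, 7 without CYGB replicate 3). Over all transcripts, 681 passed the threshold, 1506 with DESeq2, 319 where the mean count was 50 or more, and from 961 to 1209 with 1 library left out, highest without MOCK replicate 3. At an adjusted p under 0.05 there were 10 transcripts, 748 with DESeq2, 5 without a filter and 0 to 7 with 1 library left out (0 without CYGB replicate 3). Fewer features were tested at the higher filter, and the cause of these shifts was not tested.

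Replicate numbers were not taken as pairing, because the deviations of MOCK and CYGB libraries with 1 number correlated at only 0.0322, 0.00672 and 0.0324 over genes, although each library correlated best with its own number. With the replicate block, 291 transcripts passed the threshold, and the numbers at an adjusted p under 0.05 were 0 for transcripts and 0 for genes. The block left the EFNB2 gene at 0.01 and both of its transcripts past the threshold. With 3 libraries per group and 22 to 349 counts on the minor EFNB2 transcript, the size of the shift in each transcript is less precise than the shift in share.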

Other observations

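Among 9946 other tested genes of at least 10 CPM, those whose centred log2 CPM over the 6 libraries lay nearest to EFNB2 were PCBP1 (distance 0.0232), PPP5C (distance 0.0362) and LSM2 (distance 0.0515). All 3 were flat in CPM across the libraries, as EFNB2 was, which follows from how they were picked. PCBP1, an RNA-binding protein, had 377 to 396 CPM in MOCK and 386 to 400 CPM in CYGB libraries. PPP5C, a protein phosphatase, had 110 CPM in each MOCK library and 108 to 113 CPM in CYGB. LSM2, a core protein of RNA splicing, had 49.7 to 52.7 CPM over the 6 libraries. The crypt stem cell genes LGR5 and ASCL2 had 0 to 14 counts and 0 to 4 counts per library and were not tested, while EPHB2 and EPHB3, which share the crypt base with them, had at least 1231 counts in every library.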
